A study of Mus musculus with 9 samples.

Results

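The genes described here encode the granins of the regulated secretory pathway and the enzymes that cut and modify the peptide precursors stored with them. They are Scg2, Scg3, Chga, Chgb, Vgf and Scg5 among the granins, and Pcsk1, Pcsk2, Cpe and Pam among the processing enzymes. The 10 genes were chosen by their symbols from the 56980 gene identifiers of the count table, because Scg2 had the largest fall with an EZH2 inhibitor in these same libraries. The fall of Scg2 under the inhibitor is therefore a property of the choice. All 10 passed the filter on low counts, which left 17001 genes.

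The 9 libraries came from cultured mouse oligodendrocyte progenitor cells (OPCs), the dividing precursors of the myelin-forming cells of the brain, and fell into 3 groups of 3. Cells of every group were Trp53 -/-, so no group had intact p53, and all grew in SATO medium with 10 ng/mL PDGF-AA and forskolin, an activator of adenylate cyclase. The group p53n carried no further change. The group BB-p53n DMSO expressed PDGF-BB, a growth factor that activates PDGF receptors, and received the vehicle DMSO. The group BB-p53n EZH2i was the PDGF-BB line given 5 µM tazemetostat for 48 hours, a drug that inhibits EZH2, the histone methyltransferase of Polycomb repressive complex 2. The labels do not describe the construct that carries PDGF-BB. The last 2 groups are called the vehicle group and the inhibitor group below. No p53n library received DMSO, so effects of PDGF-BB and of DMSO cannot be told apart. The labels do not say whether libraries of a group were separate cultures, and p-values measure only how far these libraries spread, which may be technical variation.

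Granins are acidic secretory proteins that aggregate in the trans-Golgi network, help to form dense core vesicles and are themselves cut into peptides. Prohormone convertases cleave precursors at pairs of basic residues, carboxypeptidase E trims the exposed basic residues, and peptidylglycine alpha-amidating monooxygenase converts a terminal glycine to an amide. The genes are best known from neurons and neuroendocrine cells, and glial cells are known to express some of them, such as Cpe and Scg3. Several granin genes are known targets of the cAMP-responsive factor CREB, which binds the cAMP response element, and of the repressor REST.

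Every culture received forskolin, which raises cAMP, so the promoters of the granin and convertase genes are shown with their cAMP response elements. Promoters of 8 of the 10 genes were found in the RefSeq promoter table (build GRCm38.p6); Vgf and Cpe had no entry. The 250 bases before the start were searched on both strands for the full element TGACGTCA and the core element TGACG, which every full element also contains. The full element was present in Scg2, Chgb and Pcsk1, which is 3 of 8 genes (37.5%), against 1.55% of 32851 promoters and 3.08% of 11299 tested genes. A core element was present in 7 of 8 (87.5%), against 17.8% of all promoters and 30% of tested genes. Pam held neither. The core of Scg5 began 175 bases before the start, outside the stretch shown for the others. A match describes letters in this window and not a bound site. The 120 bases before the start are printed 5′ to 3′ on the strand of the gene; capitals mark the full element in the first 3 genes and the core element in the others, which in Pcsk2 lies on the opposite strand; further cores are left in lower case.
Scg2 (chr1:79440027-79440146, minus strand): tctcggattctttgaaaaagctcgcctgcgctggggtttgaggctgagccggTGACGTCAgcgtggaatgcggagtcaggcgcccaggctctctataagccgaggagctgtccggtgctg
Chgb (chr2:132781522-132781641, plus strand): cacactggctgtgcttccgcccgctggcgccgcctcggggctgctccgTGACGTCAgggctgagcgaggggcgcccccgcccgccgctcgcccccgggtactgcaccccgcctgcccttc
Pcsk1 (chr13:75089737-75089856, plus strand): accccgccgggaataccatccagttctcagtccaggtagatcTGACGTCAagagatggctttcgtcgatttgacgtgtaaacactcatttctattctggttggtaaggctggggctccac
Scg3 (chr9:75684057-75684176, minus strand): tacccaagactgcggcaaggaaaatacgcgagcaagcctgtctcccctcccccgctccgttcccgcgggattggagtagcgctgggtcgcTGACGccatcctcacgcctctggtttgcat
Chga (chr12:102554821-102554940, plus strand): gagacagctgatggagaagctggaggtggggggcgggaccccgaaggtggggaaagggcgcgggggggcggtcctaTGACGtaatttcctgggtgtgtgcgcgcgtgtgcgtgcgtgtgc
Pcsk2 (chr2:143546013-143546132, plus strand): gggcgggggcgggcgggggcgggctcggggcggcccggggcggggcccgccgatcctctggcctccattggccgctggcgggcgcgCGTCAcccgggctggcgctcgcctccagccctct
The full element of Scg2 began 68 bases before the gene start, that of Chgb 72 bases and that of Pcsk1 78 bases. The core elements began 30 bases before the start in Scg3, 44 in Chga and 34 in Pcsk2.

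Total counts ranged from 19471768 to 34557109 per library, and 3 counts corresponded to 0.0868 to 0.154 CPM (CPM, the count scaled by the TMM-adjusted size of its library). The libraries differed in more than their treatment. Xist was at 2777 to 3101 CPM in p53n, 46.2 to 65.0 CPM in the vehicle group and 2.82 to 17.4 CPM in the inhibitor group, and 4 genes of the Y chromosome (Uty, Kdm5d, Ddx3y, Eif2s3y) were each under 1 CPM in p53n and lay at 21.3 to 55.2 CPM in the vehicle group and at 2.503 to 17.9 CPM in the inhibitor group. Neither PDGF-BB nor the inhibitor can therefore be told apart from differences between the source cultures. Mitochondrial genes took 4.46% to 5.76% of counts in p53n, 2.44% to 2.63% in the vehicle group and 1.34% to 1.54% in the inhibitor group. The drug target Ezh2 was at 110.1 to 116 CPM, 170.1 to 173 CPM and 107 to 116 CPM in the same order. The activity of the enzyme was not measured in these libraries. The 10 OPC markers summed to 8554 to 9133 CPM in p53n, 6579 to 6623 in the vehicle group and 4796 to 5098 in the inhibitor group, and none was at 0. Ptprz1, Gpr17 and Pdgfra carried the lower sums, while others went the other way. Olig2 had means of 534, 805 and 894 CPM, Cspg4 287, 509 and 677 CPM, and Sox10 2.21, 299 and 459 CPM, so Sox10 was nearly absent from p53n. Of the 10, 3 were called higher and 6 lower with PDGF-BB, beside 35.3% and 34% of all genes. With the inhibitor 4 were called higher and 5 lower, beside 37.3% and 35.6%. With the trend of log2 CPM on GC content and exon length removed from every library, these became 3 and 7, and 1 and 9. The shares of all genes were then 31.7% and 40.1% with PDGF-BB, and 28.2% and 29.3% with the inhibitor.

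Levels between genes were compared per kilobase of exon. In p53n the most abundant was Cpe at 123 CPM per kb, followed by Scg3 at 63.4 and Scg5 at 50.7, and the next, Scg2, was at 7.71. Pcsk2 at 3.80 and Chga at 3.73 CPM per kb overlapped and were not separated; below them came Chgb at 2.94, Pam at 2.27, Vgf at 0.64 and Pcsk1 at 0.16. In the vehicle group the order after Cpe (103 CPM per kb) became Scg2 at 26.5, Scg3 at 21.7, Vgf at 9.31, Scg5 at 7.55 and Pam at 5.73, followed by Chga, Pcsk2, Chgb and Pcsk1, with no overlap between neighbours. In the inhibitor group Cpe stood at 80.5, Scg3 at 17.7, Scg5 at 10.03 and Vgf at 8.90 CPM per kb, of which Scg5 and Vgf overlapped. Scg2 had moved to eighth place at 1.70 CPM per kb, between Pcsk2 at 2.22 and Chgb at 0.71. The choice of Scg2 fixes that last shift.

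**Figure D1:**
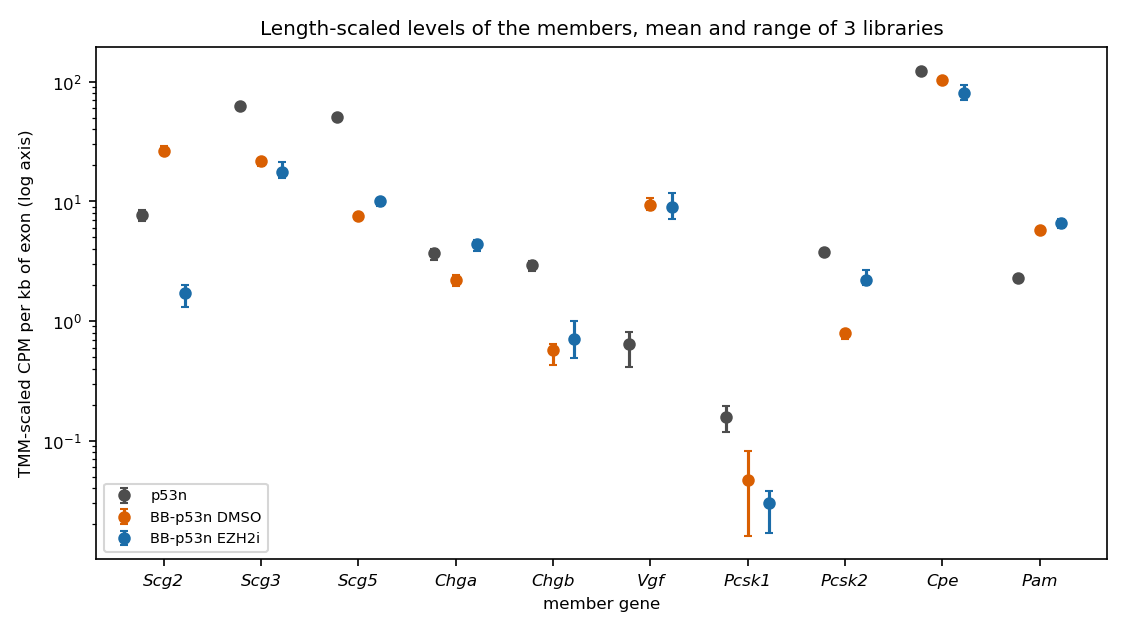
Level of each gene per kilobase of exon (TMM-scaled CPM per kb, log axis) in the 3 groups; points are means of 3 libraries and bars span the lowest to the highest library. Cpe is the most abundant in each group, and Scg2 goes from 7.71 in p53n to 26.5 in the vehicle group and 1.70 in the inhibitor group.

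The 6 granin genes summed to 129 ± 2.46 CPM per kb (SD, n = 3) in p53n, 67.8 ± 4.38 in the vehicle group and 43.4 ± 3.11 in the inhibitor group, and the last step is that of Scg2. Without Scg2 the sums were 121 ± 3.27, 41.3 ± 2.23 and 41.7 ± 3.15, and the vehicle and inhibitor libraries overlapped. The makeup of the whole sum differed as well. Scg2 gave 5.98% ± 0.76 of this sum in p53n, 39.0% ± 1.40 in the vehicle group and 3.94% ± 0.86 in the inhibitor group. Scg3 gave 49.1% ± 1.15, 32.0% ± 1.73 and 40.8% ± 6.65 in the same order, and Scg5 gave 39.2% ± 1.07, 11.2% ± 1.07 and 23.2% ± 2.38. Vgf made up 0.50% ± 0.16 in p53n, 13.7% ± 0.95 in the vehicle group and 20.4% ± 4.71 in the inhibitor group. These shares are descriptive, since Scg2 is part of each sum.

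In PDGF-BB cells with vehicle, Scg2, Vgf and Pam were higher than in p53n cells, and Scg3, Chga, Chgb, Scg5, Pcsk1, Pcsk2 and Cpe were lower. This comparison addressed PDGF-BB expression in p53-null cells and was tested with edgeR's quasi-likelihood test, with Benjamini-Hochberg adjustment over all tested genes. Leaving out Scg2, 2 of 9 genes rose, where 35.3% of all genes did, and 7 of 9 fell, where 34% did. The 3 libraries of one group did not overlap with those of the other in any of the 9, and the same held for 76.1% of all genes. Scg2 was picked in a comparison that shares the vehicle libraries, so its level there is not independent of the choice and is described without a test. In bulk RNA, fewer cells of a type and less RNA per cell cannot be told apart. The summed astrocyte markers (10 genes) were at 1905 to 2094 CPM in p53n and at 1173 to 1201 CPM in the vehicle group, and the oligodendrocyte markers (9 genes) at 755 to 798 and 177 to 192 CPM. The 9 neuroendocrine markers went the other way, from 316 to 347 CPM in p53n to 444 to 468 CPM, with Dbh at 0 in p53n and Th at 0 in the vehicle group. The part of these cell markers in the 10 genes' values was not tested.

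Scg2 encodes secretogranin II, the precursor of secretoneurin (chromosome 1, 79412386 to 79417837, minus strand, GRCm39). It was at 17.2, 21.4 and 19.6 CPM in the p53n libraries, 64.4, 73.5 and 62.0 CPM in the vehicle group, and 4.56, 3.30 and 5.00 CPM in the inhibitor group. All vehicle libraries lay above all p53n libraries, and all inhibitor libraries below both. Against p53n the vehicle-treated PDGF-BB cells were higher by a log2 fold change of 1.78 (SE 0.11), or 3.44-fold, given without a test because the choice used the vehicle libraries.

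Vgf, the nerve growth factor inducible granin (chromosome 5, 137055246 to 137062205), was at 2.39, 2.12 and 1.22 CPM in p53n, 25.9, 31.9 and 25.2 CPM in the vehicle group, and 23.4, 21.3 and 34.7 CPM in the inhibitor group. It was low in every p53n library and high in every PDGF-BB library, with or without the drug. Its rise in the vehicle group was the largest of the 10, a log2 fold change of 3.83 (SE 0.25, adjusted p = 1.06e-07). Pam, which encodes the amidating enzyme (chromosome 1, 97722839 to 98023371), was at 27.6, 28.3 and 25.3 CPM in p53n, 64.5, 69.6 and 70.2 CPM in the vehicle group, and 84.5, 71.1 and 81.8 CPM in the inhibitor group. Both PDGF-BB groups lay above p53n, and the vehicle group had risen by 1.33 (SE 0.08, adjusted p = 1.02e-11). Exons of Pam overlap those of B230216N24Rik on the same strand, which had 215 counts over all libraries.

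Scg3, whose product binds chromogranin A and the vesicle membrane (chromosome 9, 75550471 to 75591338), had 180.2, 173 and 168 CPM in p53n, 54.7, 62.3 and 61.3 CPM in the vehicle group, and 43.0, 58.5 and 43.9 CPM in the inhibitor group. The p53n libraries stood apart from the other two groups, which overlapped. Scg3 fell by 1.55 on the log2 scale with PDGF-BB (SE 0.10, adjusted p = 6.23e-11). Chgb, which encodes chromogranin B (chromosome 2, 132623198 to 132636999), was at 7.22, 8.28 and 8.67 CPM in p53n, 1.73, 1.18 and 1.76 CPM in the vehicle group, and 1.35, 1.70 and 2.76 CPM in the inhibitor group. It too was high only in the p53n libraries, and fell by 2.37 on the log2 scale (SE 0.22, adjusted p = 5.26e-09). Chga, which encodes chromogranin A (chromosome 12, 102521228 to 102531287), was at 11.001, 8.99 and 10.9 CPM in p53n, 5.91, 6.75 and 5.40 CPM in the vehicle group, and 10.6, 13.2 and 12.4 CPM in the inhibitor group. Its lowest values were the vehicle libraries, which lay under all others, with a fall of 0.77 on the log2 scale (SE 0.14, adjusted p = 3.9e-05).

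Scg5 encodes 7B2, the chaperone that the convertase PC2 needs to mature (chromosome 2, 113606707 to 113659466). It was at 81.4, 76.2 and 80.9 CPM in p53n, 12.1, 11.4 and 12.1 CPM in the vehicle group, and 15.975, 14.5 and 16.7 CPM in the inhibitor group, so the p53n libraries were high and each vehicle library lay under each inhibitor library. Its fall of 2.75 on the log2 scale (SE 0.09, adjusted p = 2.02e-16) was the largest of the 7. Pcsk2, the gene of PC2 itself (chromosome 2, 143388076 to 143658205), was at 31.4, 29.7 and 29.0 CPM in p53n, 6.39, 5.60 and 6.69 CPM in the vehicle group, and 15.9, 21.1 and 15.7 CPM in the inhibitor group. The 3 groups did not overlap, with the inhibitor libraries between the others. Pcsk2 fell by 2.27 on the log2 scale with PDGF-BB (SE 0.12, adjusted p = 9.35e-13). Its exons overlap the antisense genes Pcsk2os1, with 364 counts over all libraries, and Pcsk2os2, with 15; counting without strand cannot separate their reads.

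Pcsk1, which encodes the other neuroendocrine convertase (chromosome 13, 75237945 to 75282980), was close to the detection limit. It received 19, 26 and 21 counts in p53n, 3, 8 and 15 counts in the vehicle group, and 5, 4 and 2 counts in the inhibitor group. These counts corresponded to 0.66 to 1.08 CPM, 0.090 to 0.46 CPM and 0.095 to 0.21 CPM, so the p53n libraries were the highest and the other two groups overlapped. The fall with PDGF-BB was 1.72 on the log2 scale (SE 0.49, adjusted p = 0.00393). Cpe, which encodes carboxypeptidase E (chromosome 8, 65045576 to 65146088), was at 314, 323 and 326 CPM in p53n, 257, 281 and 267 CPM in the vehicle group, and 245, 183 and 202 CPM in the inhibitor group. The 3 groups did not overlap, and the difference between the first 2 was the smallest of the 10 at a log2 fold change of -0.26 (SE 0.08, adjusted p = 0.00885). The adjusted p was 0.0833 without the first p53n library, 0.146 (log2 fold change -0.16) without the third, 0.0601 without the first vehicle library and 0.0532 without genes of chromosomes X, Y and MT. After the trend of log2 CPM on GC and exon length was removed from every library, the value for Cpe was -0.48.

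**Figure D2:**
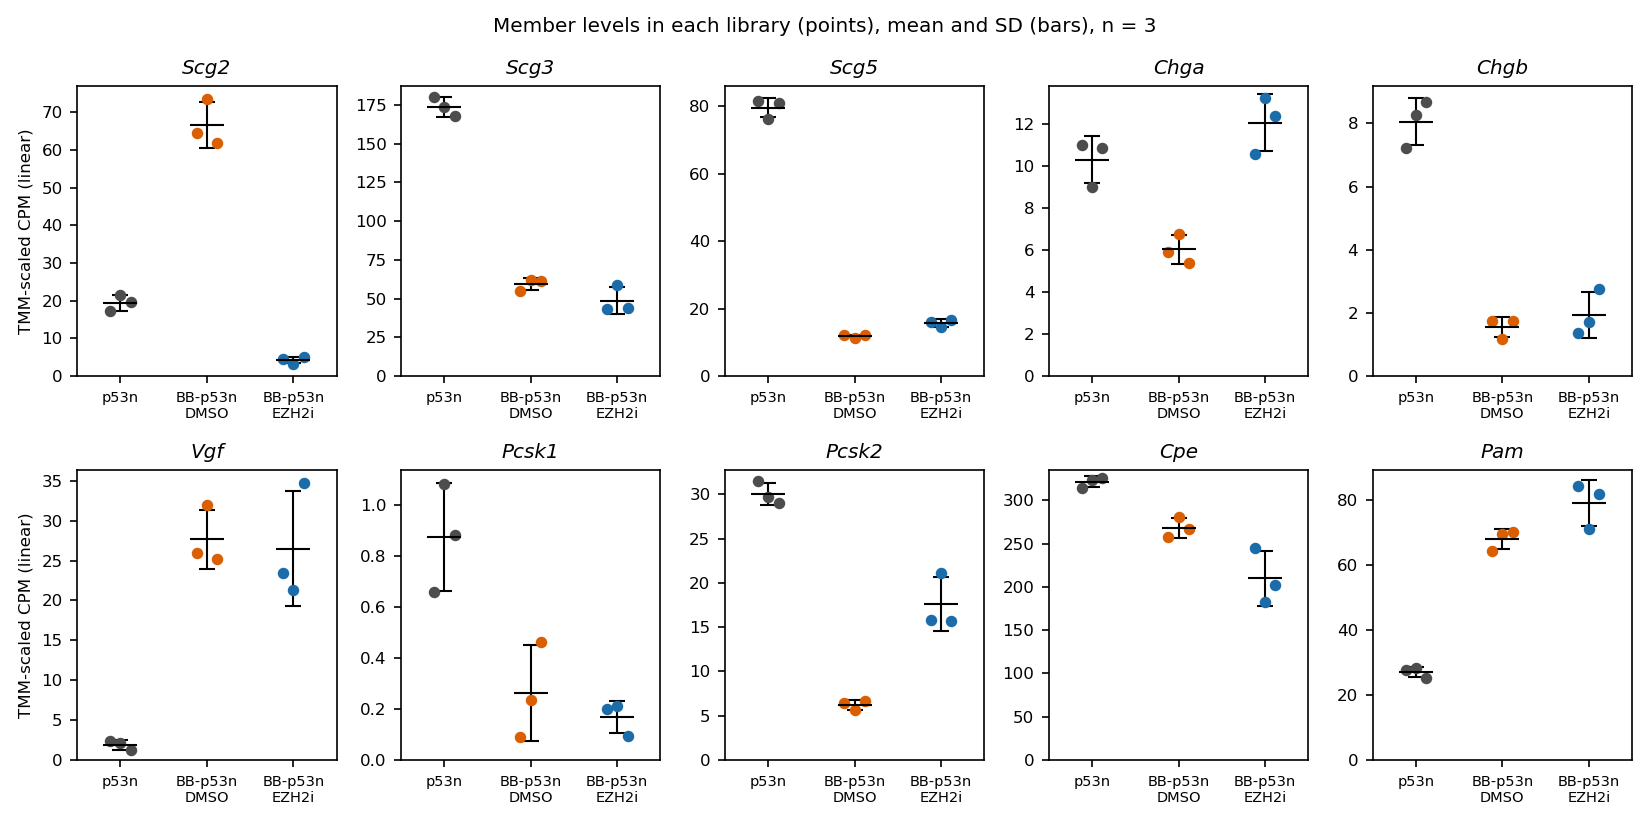
Level of each gene in each of the 9 libraries (TMM-scaled CPM, linear axes that differ between panels); points are libraries, and bars give the mean and SD of 3. Scg2 rises to 62.0 to 73.5 CPM in the vehicle group and is at 3.30 to 5.00 CPM in the inhibitor group, whereas Scg3, Chgb and Scg5 are high in p53n alone.

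With tazemetostat the 10 genes differed from vehicle in both directions, and no test is given, since the choice rests on this contrast. Scg2, Scg3, Vgf, Pcsk1 and Cpe had lower fitted values and Chga, Chgb, Scg5, Pcsk2 and Pam higher ones, that is 5 of 10 below 0, where 49.3% of all genes were. The groups did not overlap in 6 of 10, against 75.3% of all genes. Scg2 was lower by a log2 fold change of -3.95 (SE 0.13), or 15.4-fold. Among the 11575 tested genes whose average log2 CPM was 1 or more and with a symbol that is not a predicted-gene (Gm), Rik or clone name, this was the most negative value, followed by Mybl1 at -3.27 and Tex16 at -3.20. With no limit on level it was the thirteenth of 13473 such genes, just after Aqp4 at -4.01. With predicted and unnamed genes included it was the sixth of 12879 genes above that level and 78th of all 17001, so the label of largest fall holds only within the first of these sets. Pcsk2 was higher by 1.49 (SE 0.12), or 2.81-fold, and Chga by 1.00 (SE 0.14). The other 7 lay between -0.62 for Pcsk1 (SE 0.65) and 0.41 for Scg5 (SE 0.09). The 15 neuron markers, mostly Map2 and Dcx, summed to 1796 to 1964 CPM in the vehicle libraries and 652 to 781 CPM in the inhibitor libraries, where Gad2 was at 0. Of the 13 tested, 4 were called higher and 7 lower, beside 37.3% and 35.6% of all genes. Their median was -0.81, or -0.14 with the GC and length trend removed. Among those higher, Tubb3 went from 37.1 to 85.4 CPM, Nefl from 8.74 to 18.2 CPM and Rbfox3 from 1.33 to 6.17 CPM. The neuroendocrine markers summed to 444 to 468 and 402 to 431 CPM. Their part in these values was not tested.

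Over the 12786 genes above an average log2 CPM of 1, the inhibitor values moved with the GC content of the transcript (Spearman's rho 0.73, a description across genes within the same 9 libraries). The members' values are therefore given beside those of genes within 1 percentage point of GC. Scg2 has 46.8% GC, and 1371 such genes had a median log2 fold change of -0.36 and a 5th to 95th percentile range from -1.60 to 0.80. Scg2 lay below that range, a place that its choice by this fall had fixed. Pcsk2 (46.9% GC) lay above its range, which was -1.60 to 0.80 over 1375 genes. Vgf, with 64.1% GC, had a value of -0.06, and its 73 neighbours had a median of 0.94 and a range from 0.005 to 1.27. Chga (58.4% GC), whose neighbours had a median of 0.78, and Pcsk1 (40.6%), with a neighbour median of -1.25, lay inside their ranges, as did Scg3, Chgb, Scg5, Cpe and Pam. Removing the trend on GC and length from every library left Scg2 at -3.84 and moved Pcsk2 to 1.99, Chga to 0.15, Vgf to -0.89, Cpe to -0.60, Pam to 0.57 and Scg3 to -0.12. It turned the sign for Chgb, from 0.30 to -0.35, and for Pcsk1, from -0.62 to 0.46. Single libraries also turned a sign. Chgb was at -0.04 without the third inhibitor library, and Pcsk1 at 0.04 without the third vehicle library. Vgf was at 0.05 without the second vehicle library, and at 0.02 and 0.07 without the first and the second inhibitor library.

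**Figure D3:**
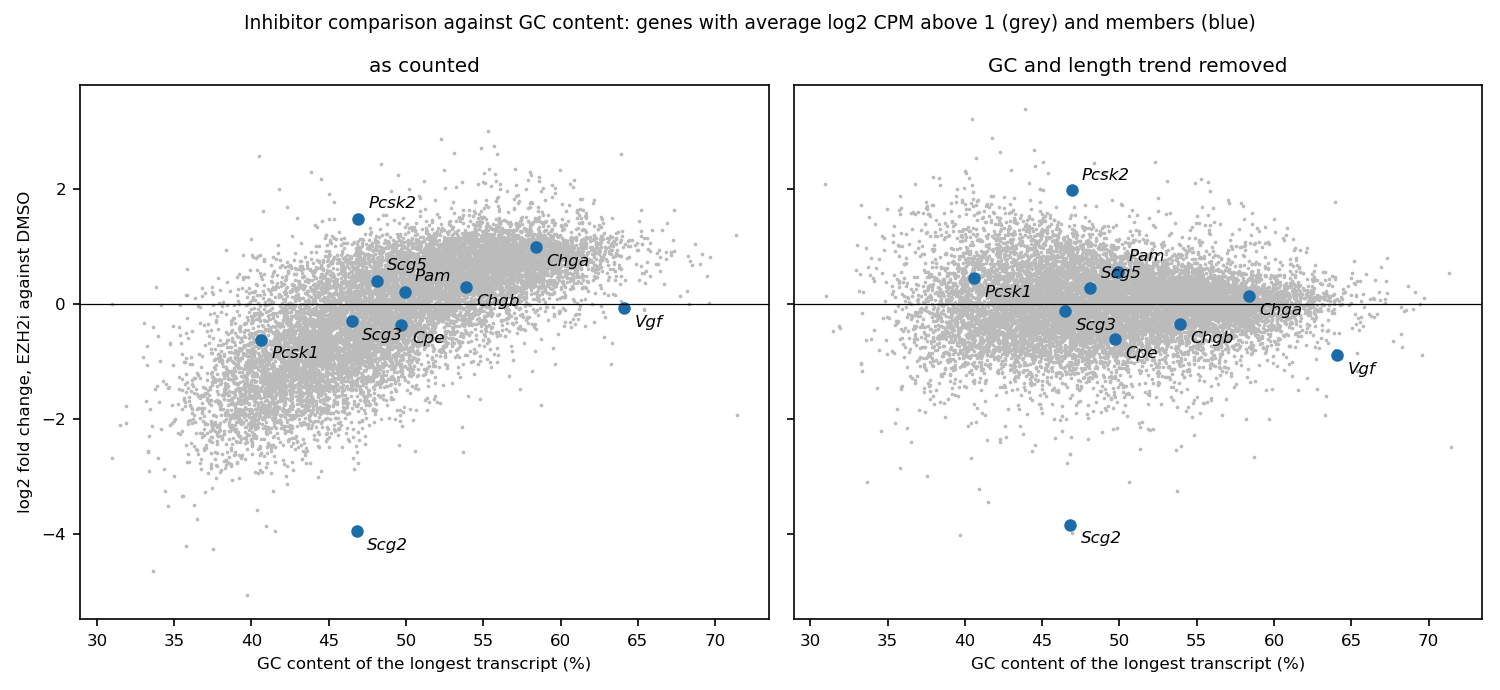
Log2 fold change of the inhibitor group against the vehicle group (vertical axis) by GC content of the longest transcript (%), left as counted, right after removal of the GC and length trend; grey points are genes with an average log2 CPM above 1 and blue points the 10 genes. Scg2, which was chosen by its fall in this contrast, lies below nearly all genes of like GC content in both panels, at -3.95 and -3.84. 2810442N19Rik is level with it on the left and lower on the right, and Chga goes from 1.00 to 0.15.

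Compared with p53n cells, the inhibitor-treated PDGF-BB cells had more Vgf and Pam and less Scg3, Chgb, Scg5, Pcsk2, Pcsk1 and Cpe. Scg2 was left out of this test, because its inhibitor libraries chose it; its mean of 4.29 ± 0.88 CPM lay under the 19.4 ± 2.12 CPM of p53n. Of the other 9 genes 2 were higher and 6 lower, where 40.3% and 41.7% of all genes were. The comparison shares the p53n libraries with that of the vehicle group, so both are given by their own values. Vgf was higher by a log2 fold change of 3.77 (SE 0.26, adjusted p = 7.36e-08), or 2.62 with the GC and length trend removed. Pam was higher by 1.55 (SE 0.08, adjusted p = 4.63e-13), or 1.735 with the trend removed. Scg5 fell by 2.34 on the log2 scale (adjusted p = 1.21e-15), Chgb by 2.06 (adjusted p = 3.59e-08) and Scg3 by 1.85 (adjusted p = 3.13e-12). Pcsk2 stood at -0.78 (SE 0.11, adjusted p = 2.5e-06) and at -0.41 after removal of the GC and length trend. Cpe stood at -0.61 (SE 0.08, adjusted p = 1.06e-06) and at -1.09 with the trend removed. Pcsk1 stood at -2.33 (SE 0.57, adjusted p = 0.000878), and removing the trend ended this call (-1.11, adjusted p = 0.099). Chga did not pass the test (log2 fold change 0.22, SE 0.13, adjusted p = 0.127) and was the one gene of the 9 whose groups overlapped. Its value turned to -0.77 (adjusted p = 6.31e-06) with the trend removed, and it was 0.33 (adjusted p = 0.0347) without the first inhibitor library.

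**Figure D4:**
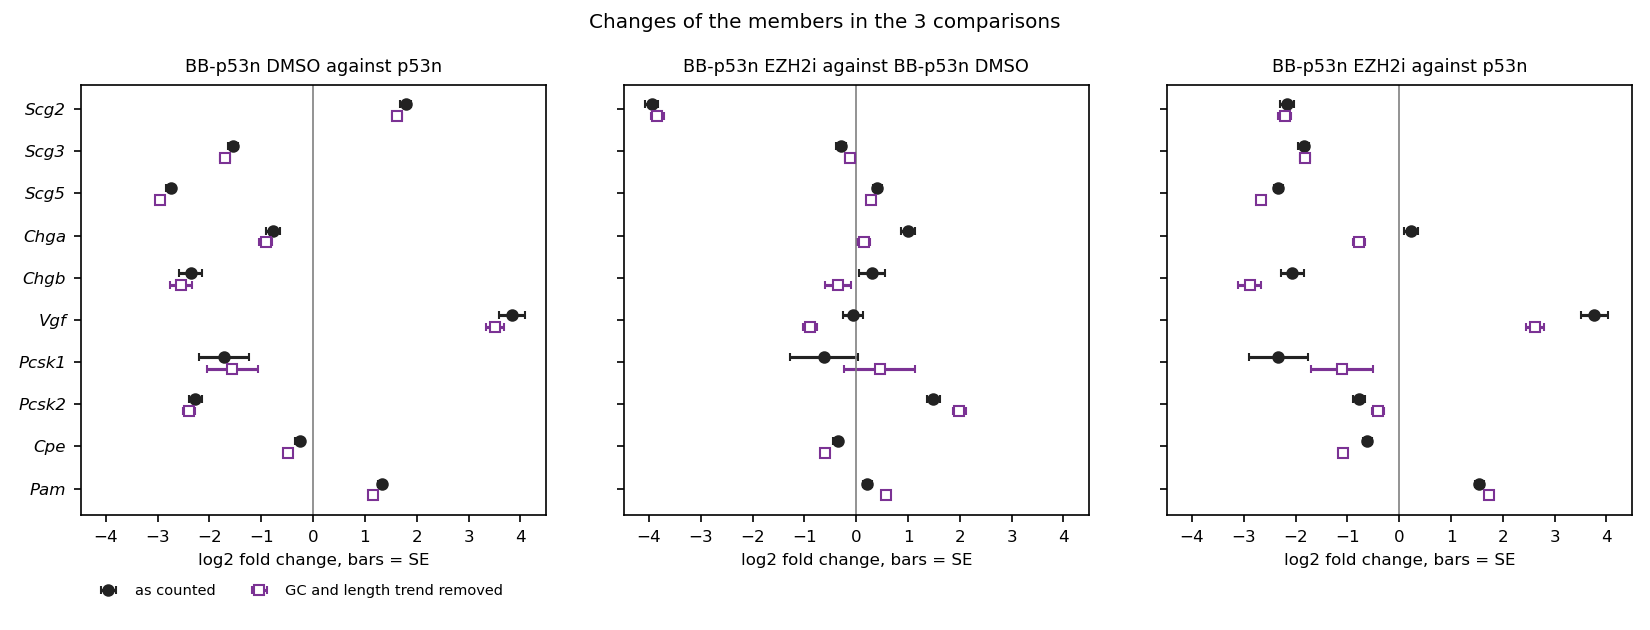
Log2 fold changes with SE of the 10 genes in the 3 comparisons, as counted (black circles) and after removal of the GC and length trend (open squares). Vgf is at 3.83 and 3.77 in the comparisons with p53n and at -0.06 between the PDGF-BB groups as counted, and Scg2 is at 1.78, -3.95 and -2.16 from left to right.

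The genes were set side by side by the distance between their profiles over the 9 libraries, in log2 CPM centred on each gene's mean. Scg5 and Chgb were nearest to each other (distance 0.93, Pearson's r 0.97), followed by Scg3 and Pcsk1 (1.32), and Scg5 and Vgf were farthest apart (9.03, r -0.98). Pcsk1 had only 2 to 26 counts per library. No gene of the 10 followed Scg2 closely in level. The 5 genes nearest to Scg2 among tested genes whose symbol is no Gm, Rik or clone name were Knl1 (distance 1.56, r 0.95), Zfp948 (1.56, r 0.96), Reps2 (1.62, r 0.97), Pvrig-ps (1.64, r 0.98) and Rif1 (1.73, r 0.96). Knl1, which encodes a kinetochore scaffold, had means of 37.9, 84.1 and 10.1 CPM in the p53n, vehicle and inhibitor libraries. Pvrig-ps was close to the detection limit, with means of 0.17, 0.62 and 0.029 CPM in the same order. These coefficients describe 3 group levels more than 9 independent points.

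Other enzymes that cut or trim precursors were read from a list of 25 genes, of which 23 were tested. With PDGF-BB 9 rose and 8 fell; their median log2 fold change was 0.08, against -0.02 over all genes. Removing the GC and length trend gave 6 and 9, and a median of -0.01. With PDGF-BB the shares of all genes that rose and fell were 35.3% and 34%, or 31.7% and 40.1% with the trend removed. Pcsk5, another convertase gene, had 1.47 ± 0.22 CPM in p53n and 27.0 ± 1.83 CPM with PDGF-BB (log2 fold change 4.19, adjusted p = 3.86e-16). Ctsb, the gene of the lysosomal protease cathepsin B, fell by 1.00 on the log2 scale (adjusted p = 3.72e-11). With the inhibitor 16 rose and 4 fell, where 37.3% and 35.6% of all genes did. The median was 0.51, against 0.02 over all genes. After removal of the GC and length trend 11 rose and 3 fell (list median 0.27), beside 28.2% and 29.3% of all genes. Thop1, a peptidase that degrades short neuropeptides, rose by 1.08 (adjusted p = 3.38e-10; 0.37 with the trend removed). Cpd, the carboxypeptidase gene of the trans-Golgi network, fell by 1.11 on the log2 scale (adjusted p = 5.35e-12) from 336 to 155 CPM, and by 0.42 with the trend removed. Pcsk1n, the gene of the convertase inhibitor proSAAS, was at 39.0, 30.8 and 46.3 CPM in the p53n, vehicle and inhibitor libraries and was named after its values were seen. Its log2 fold change with the inhibitor turned from 0.59 (adjusted p = 1.05e-05) to -0.27 (adjusted p = 0.00302) with the trend removed, and against p53n from 0.25 (adjusted p = 0.0211) to -0.76 (adjusted p = 4.04e-09).

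The machinery of dense core vesicles was read from 47 genes for vesicle formation, tethering and release, with 44 tested. With PDGF-BB 8 rose and 19 fell, where 35.3% and 34% of all genes did, and 8 and 25 with the trend removed, where 31.7% and 40.1% did. The list median was -0.19. Rab3c, a vesicle GTPase gene, went from 39.8 to 7.69 CPM and fell by 2.37 on the log2 scale (adjusted p = 2.52e-13). Syt4, the gene of a synaptotagmin on dense core vesicles, rose by 1.86 (adjusted p = 7.51e-11). With the inhibitor 19 rose and 10 fell, beside 37.3% and 35.6% of all genes. The list median was 0.15. Sytl5 had 0 counts in the inhibitor libraries and 1 in the vehicle libraries. With both raised to a floor of 3 counts the median was 0.22, a shift set by library depth alone. Rph3a, the gene of the Rab3 effector rabphilin, rose by 1.85 (adjusted p = 9.47e-12; 1.23 with the trend removed), and Syt4 fell by 2.08 on the log2 scale (adjusted p = 3.98e-11; -1.11 with the trend removed). Syt4 means were 9.04, 32.7 and 7.70 CPM, an order like that of Scg2, which was noticed after the values were seen.

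Of 56 genes for neuropeptides, peptide hormones and neurotrophins 19 were tested, so most did not pass the filter on low counts. With PDGF-BB 7 rose and 5 fell, beside 35.3% and 34% of all genes (list median 0.19). Apln, the apelin gene, went from 0.78 to 12.1 CPM (log2 fold change 3.96, adjusted p = 2.38e-14), and Npy, the neuropeptide Y gene, went from 9.51 to 0.51 CPM (-4.21, adjusted p = 3.23e-13). With the inhibitor 9 rose and 4 fell, beside 37.3% and 35.6% of all genes (list median 0.33). Removing the trend gave 5 and 4, beside 28.2% and 29.3% (list median 0.04). Nucb1 and Nucb2, which encode the nucleobindins, moved apart. Nucb1 rose by 0.78 (adjusted p = 2.89e-07), and Nucb2 stood at -1.07 (adjusted p = 5.37e-06), a call that ended with the trend removed (-0.33, adjusted p = 0.0646). Penk, the proenkephalin gene, was at 0.35, 5.34 and 10.2 CPM in the 3 groups and was named after its values were seen. Its call with the inhibitor (0.93, adjusted p = 0.000143) ended with the trend removed (0.31, adjusted p = 0.137).

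All 35 genes of the cAMP and CREB list were tested. With PDGF-BB 20 rose and 9 fell, beside 35.3% and 34% of all genes (list median 0.35). Nr4a1, an orphan nuclear receptor gene induced by cAMP, rose by 1.71 (adjusted p = 1.64e-13), and Prkar1b, a regulatory subunit gene of protein kinase A, fell by 1.27 on the log2 scale (adjusted p = 1.08e-10). With the inhibitor 16 rose and 16 fell, beside 37.3% and 35.6% of all genes (list median -0.15). Removing the trend gave 9 and 13, beside 28.2% and 29.3%. Prkar1b rose by 1.34 (adjusted p = 8.22e-11; 0.65 with the trend removed), and Ep300, a coactivator of CREB, fell by 1.23 on the log2 scale (adjusted p = 2.58e-12).

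REST represses granin and other neuronal genes in non-neuronal cells, and 16 of 17 genes of REST and its corepressors were tested. With PDGF-BB 9 rose and 3 fell, beside 35.3% and 34% of all genes (list median 0.22). With the inhibitor 6 rose and 7 fell, beside 37.3% and 35.6% of all genes (list median 0.06). Removing the trend gave 2 and 7, beside 28.2% and 29.3%, and turned the list median to -0.08. Ctdspl, a phosphatase gene of this group, rose by 1.18 with PDGF-BB (adjusted p = 1.33e-10), and Rcor2, a corepressor gene, fell by 0.94 on the log2 scale (adjusted p = 2.64e-10). With the inhibitor Ehmt2, a histone methyltransferase gene, rose by 0.95 (adjusted p = 2.13e-10; 0.27 with the trend removed), and Rcor1 fell by 1.35 on the log2 scale (adjusted p = 1.42e-11). Rest itself, named after its values were seen, had means of 32.6, 53.9 and 20.4 CPM in the p53n, vehicle and inhibitor libraries, with log2 fold changes of 0.73 (adjusted p = 9.78e-05) and -1.40 (adjusted p = 1.08e-07).

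**Figure D5:**
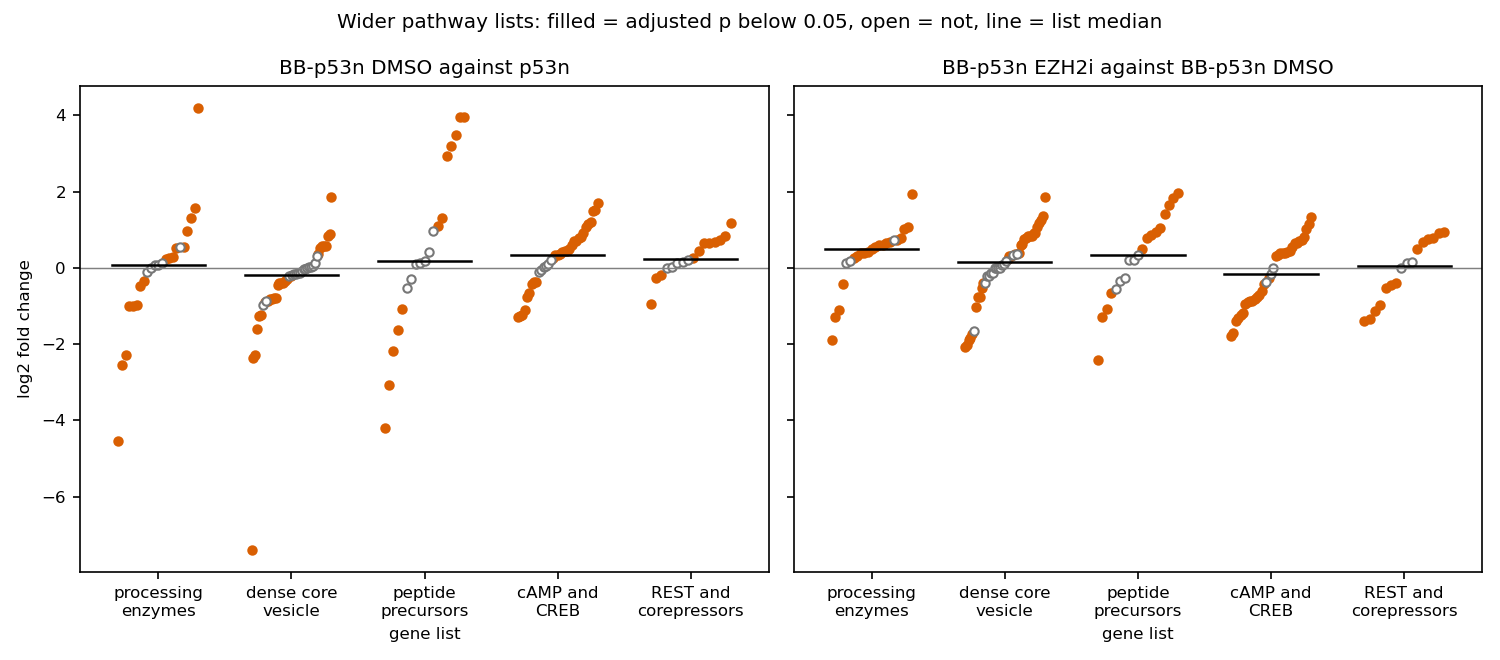
Log2 fold changes of the tested genes of the 5 wider lists in 2 comparisons; each point is a gene, filled where the adjusted p is below 0.05, and the bars are list medians. Processing enzymes lie mostly above 0 with the inhibitor, at a median of 0.51 as counted (0.27 with the GC and length trend removed), and dense core vesicle genes mostly below 0 with PDGF-BB; the lowest point is Sytl5, with 1 count in the vehicle libraries and 186 in p53n.

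Compared with p53n, the inhibitor-treated cells had 13 processing enzyme genes higher and 5 lower, 17 and 18 dense core vesicle genes, 8 and 5 precursor genes, 16 and 13 cAMP and CREB genes, and 8 and 6 genes of the REST list, beside 40.3% and 41.7% of all genes. With the trend removed the same lists had 10 higher and 8 lower, 12 and 22, 7 and 7, 15 and 16, and 4 and 5, beside 34.9% and 43.6%. Without the third inhibitor library 8 precursor genes were lower in place of 5, beside 40.1% of all genes in place of 41.7%. Among the enzymes Pcsk5 rose by a log2 fold change of 4.51 (SE 0.14, adjusted p = 6.92e-17), and Cpm, a membrane carboxypeptidase gene, fell by 2.09 on the log2 scale (adjusted p = 1.82e-08). Syt9 rose by 2.06 (adjusted p = 3.24e-13) and Syt11 fell by 1.59 (adjusted p = 5.53e-14), both synaptotagmin genes. Among the precursors Apln rose by 4.47 (adjusted p = 1.68e-15) and Npy stood at -2.56 (adjusted p = 7.88e-11). Nr4a1 rose by 2.16 (adjusted p = 2.58e-15; 1.27 with the trend removed), the phosphodiesterase gene Pde4d fell by 1.63 (adjusted p = 2.21e-13), and Ctdsp2 of the REST list rose by 1.34 (adjusted p = 4.74e-14; 0.67 with the trend removed). The histone deacetylase gene Hdac2 stood at -0.97 (adjusted p = 4.72e-11), a call that ended with the trend removed (-0.03, adjusted p = 0.707).

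The remaining marker sums completed this description. Neuron markers stood at 2189 to 2222 CPM in p53n. Astrocyte markers stood at 1259 to 1384 CPM and oligodendrocyte markers at 292 to 325 CPM in the inhibitor group, where Aqp4, Th and Dbh were at 0. Microglial, endothelial, and mural and fibroblast markers summed to at most 2.84, 22.1 and 4.37 CPM in any library. The vesicle list shares Snap25 with the neuron markers and Slc18a1 and Slc18a2 with the neuroendocrine markers.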

How the data were processed

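Polyadenylated RNA was sequenced in 9 libraries of 3 groups (500 ng RNA, Kapa mRNA HyperPrep, NovaSeq, 150 bp pairs, per the labels' protocols). The authors deposited 1 table of raw fragment counts per gene, made with featureCounts 1.6.3 over exons at a mapping quality of at least 20 on Ensembl release 108 of GRCm39, without strand, per the file headers. The submitters' processing notes also list Trimmomatic and Subread (versions not given in the sources used here). A symbol was found for 91.4% of identifiers.

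Genes were kept with filterByExpr and fitted with edgeR 4.0.16 (R 4.3.3), in 1 robust quasi-likelihood model of all libraries with TMM scaling and the group as the only term; the common biological coefficient of variation was 0.081. Calls needed a Benjamini-Hochberg adjusted p below 0.05 over all tested genes, and SE is the log2 fold change divided by the root of F. The trend of log2 CPM (prior count 2) on GC content and exon length was removed per library with splines of 5 degrees of freedom. Other alternatives were RLE and upper quartile scaling, DESeq2 1.42.0, 2 other filters, fits of 2 groups, a replicate block, leaving out chromosomes X, Y and MT, and leaving out each library. Scripts were tested on simulated data.

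The genes and lists were chosen with earlier results of these data known. Named are the 10 members; of each list, in each comparison, the called gene with the smallest adjusted p in each direction; and the 5 genes nearest to Scg2. Others are marked. Libraries of a group differed by more than sampling noise. Reads carry no molecular identifiers, so depth limits cover counting error only. Protein sequences were not analysed here.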

Additional observations from a re-analysis of the deposited data

How the results depend on the processing

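Under the alternatives run, Vgf and Pam kept their calls as higher with PDGF-BB in each setting. The count of the 9 genes other than Scg2 called lower was 6 to 7, also when 1 library was left out. Over these settings 4930 to 6567 of all genes were called higher and 4862 to 6967 lower. As shares of the genes tested in each setting these were 20.2% to 38.5% and 17.9% to 41%. The lowest shares came from the fit with no filter, over 32489 genes. Scg2 is left out of these counts, since the choice used the vehicle libraries. Against p53n with the inhibitor, 2 of the same 9 genes were higher in each setting except 1. Leaving out the first inhibitor library gave 3 (Chga, 0.33). In this comparison 5 to 6 were lower, beside 5852 to 6963 of all genes higher and 6379 to 8593 lower. The shares of tested genes were 21.4% to 42.6% and 26.4% to 43.9%, again lowest with no filter. Cpe lost its call with PDGF-BB in 4 settings, with leave-one-out values of -0.28 to -0.16. Removing the GC and length trend, without and with the replicate block, gave -0.35 and -0.36 for Chgb and 0.46 and 0.57 for Pcsk1 with the inhibitor, -0.77 and -0.77 for Chga against p53n, and -1.11 and -1.05 for Pcsk1 against p53n (adjusted p = 0.099 and 0.132). Over the wider lists it lowered the genes called higher with the inhibitor from 66 to 43 in both fits, and all genes called higher from 6349 to 4786 in the fit without the block and to 4693 in the fit with it. Leaving out 1 library gave -0.04 to 0.53 for Chgb, -1.03 to 0.04 for Pcsk1 and -0.30 to 0.07 for Vgf with the inhibitor, and a sign turned at -0.044 for Chgb, at 0.044 for Pcsk1 and at 0.05, 0.02 and 0.07 for Vgf. The cause was not tested. Scg2 with the inhibitor ranged from -4.06 to -3.80 over all settings. Deviations of same-numbered libraries had r of -0.08 to 0.12 over 9 pairs, and other pairs had -0.12 to 0.10 over 18. Between the vehicle and inhibitor groups, same-numbered pairs were at 0.12, 0.10 and -0.01, and the others at -0.12 to 0.02. With 3 libraries per group these values cannot decide whether the numbers pair samples. The replicate block alone gave 5962 genes higher and 5703 lower with PDGF-BB, against 6008 and 5772 without it. Upper quartile scaling moved the median of all genes with PDGF-BB from -0.02 to -0.16, and every member kept its direction there. Pcsk1 did not pass the filter of 1 CPM in 3 libraries, under which fewer precursor genes were tested. There 4 precursor genes rose and 3 fell with PDGF-BB, beside 37.2% and 36.5% of all genes. The depth limits Pcsk1 most, with 2 to 26 counts per library.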
